A study of Marchantia polymorpha with 6 samples.

Results

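Introns that lie in the 5′ untranslated region (5′ UTR), the stretch of a messenger RNA before its start codon, were described in the liverwort Marchantia polymorpha. For each coding gene on the 8 autosomes the transcript with most exonic bp was taken, and every intron that ended before the first coding base was counted. This gave 4896 introns in 3784 of 18134 coding genes (20.9%), or 6.26% of the 78218 introns of these transcripts. They were set against 70614 introns between coding parts, called CDS introns here, and in places against 2708 introns of 3′ UTRs. The series compared RNA of 14 day thalli, the flat haploid plant body, between wild-type Tak-1, a male line, and Mpmet-3, a loss-of-function line of MpMET, the liverwort enzyme related to those that maintain CG methylation in plants. There were 3 RNA-seq libraries of each. The files analysed were an annotation of genes and an annotation of transposable elements on Tak-1, build MpTak1 v5.1 revision 2, with no value for any library. The depth of the libraries is therefore unknown, no expression was compared, and no result below concerns the mutation.

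An intron in the 5′ UTR is removed from the RNA before translation, so it changes no amino acid. In seed plants introns of this kind in polyubiquitin, actin and elongation factor genes are known to raise expression when they lie close to the start of transcription, and promoters of such genes are often used with their leader intron. They also separate alternative first exons from the coding part of a gene. Whether the introns below do any of this in Marchantia was not tested.

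Most genes had a single intron of this kind. Among the 3784 genes, 2981 (78.8%) had 1, 634 had 2, 105 had 3 and 64 had 4 or more. The share of coding genes with such an intron was lowest on chromosome 4 (18.9%), 21.1% at the median of the chromosomes and highest on chromosome 8 (22.98%). A 5′ UTR was annotated for 16419 coding genes (90.5%), and 23.05% of these had an intron in it. The share moved with the length of the 5′ UTR in spliced RNA: 2 of 649 genes (0.308%) with at most 50 bp had an intron, 18.4% of those with over 200 and up to 400 bp and 42.9% of those with over 1600 bp. Per kb of 5′ UTR the number went the other way above 100 bp, from 0.7003 introns at over 100 and up to 200 bp to 0.350 at over 1600 bp. Longer leaders thus had introns more often but held fewer per kb. Exons between successive 5′ UTR introns had a median of 124 bp, with the middle 50% from 84.75 to 212 bp.

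**Figure D1:**
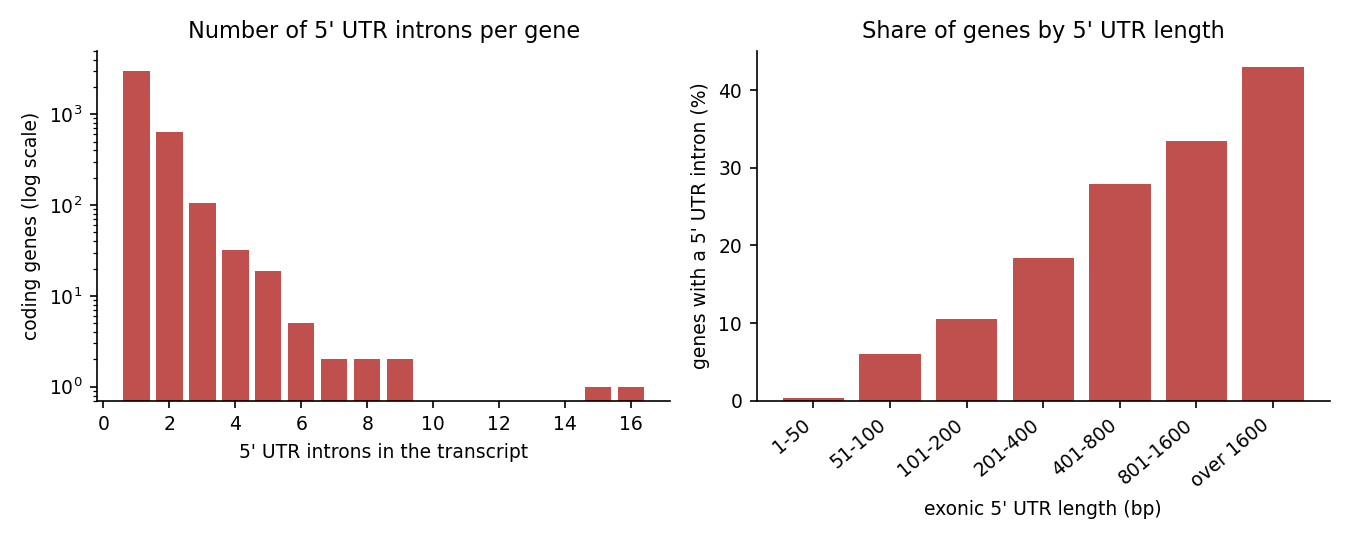
Left, coding genes (log scale) by the number of 5′ UTR introns in the transcript taken; 2981 genes had 1 and 1 gene had 16. Right, percent of genes with a 5′ UTR intron by exonic 5′ UTR length in bp, which went from 0.308% at up to 50 bp to 42.9% at over 1600 bp.

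The gene with most was Mp5g03360 (chr5:3914590-3930309, minus strand), which carries the symbol MpABCC9, a member of the ABC transporter proteins that move compounds across membranes. Its leader of 2848 exonic bp held 16 introns of 96 to 773 bp, 4775 bp in all, followed by 23 CDS introns. Mp3g03790 came next with 15 introns of 102 to 592 bp. Mp7g01180 and Mp3g09930 had 9 each, Mp5g21070 and Mp1g02370 had 8, and Mp1g05040 and Mp3g10920 had 7. Of the genes with 6, those with most intron sequence were Mp2g04160, or MpBHLH35, a gene of the basic helix-loop-helix transcription factors, with 7936 bp, and Mp7g10160 with 5046 bp. Of these 10 genes, 8 had no element sequence in their 5′ UTR introns, while Mp7g01180 had 2798 bp and Mp7g10160 had 1794 bp. Of all 3784 genes with a 5′ UTR intron, 264 had element sequence in one. The other 8 of the 10 genes received no symbol, and which protein they encode was not read here.

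Introns were sparse in leaders and became denser towards the start codon. Spliced 5′ UTR sequence held 0.514 ± 0.0366 introns per kb (SD, n = 8 chromosomes), coding sequence 3.12 ± 0.224 and 3′ UTR 0.264 ± 0.0207. On each of the 8 chromosomes the 5′ UTR lay below coding sequence and above the 3′ UTR, and the ranges did not overlap (exact sign-flip permutation over chromosomes, adjusted p = 0.0078 for both, the smallest that 8 chromosomes can give). In 25 bp bins the density was 0.320 per kb at 499 to 475 bp before the start codon and 1.73 per kb in the last 25 bp, where 703 introns lay. The first 25 coding bp held 1.39 per kb, fewer than the last bin of the leader, and the density was 2.48 at 76 to 100 bp and 3.44 at 476 to 500 bp into the coding sequence.

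**Figure D2:**
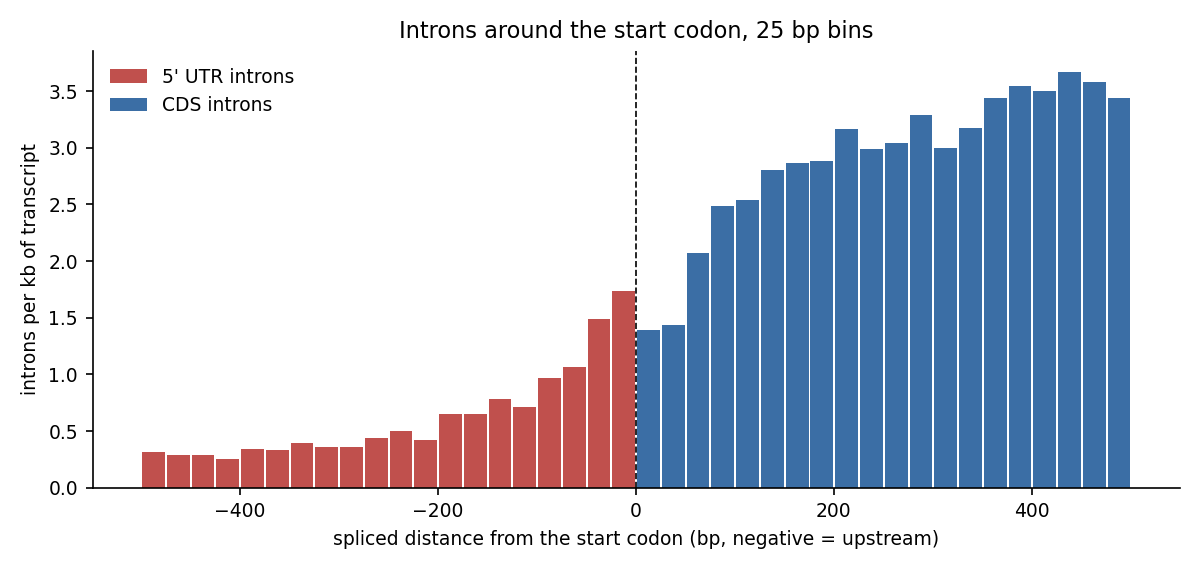
Introns per kb of spliced transcript in 25 bp bins around the start codon, upstream of it in red and downstream in blue. The density was 0.320 in the farthest upstream bin, 1.73 in the bin just before the start codon and 1.39 in the bin just after it.

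The distance from an intron to the start codon, counted in spliced bp, had a median of 132 bp, and the middle 50% lay between 46 and 326.25 bp. Within 10 bp lay 306 introns (6.25%), within 50 bp 1313 (26.8%), and beyond 500 bp 736 (15.03%). The farthest was 5917 bp away. Taking the last 5′ UTR intron of each gene, the median was 91 bp. From the annotated start of the transcript the introns lay at a median of 465.5 spliced bp. Introns close to the start codon were the longer ones: the median length was 370.5 bp within 10 bp of it, 299 bp at over 100 and up to 200 bp and 253 bp beyond 500 bp. These lengths are given as a description.

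In 42 genes the intron ended directly at the first coding base, with no exonic base between. Among these with a symbol were MpRBR, the liverwort retinoblastoma-related gene that restrains the cell cycle, the histone genes MpH3.1b and MpH3.1c, the NAC transcription factor gene MpNAC5, MpATXR14, MpBAH4, MpC3H15, Mpsnf1.13 and MpExpansin35. The intron of MpH3.1b was 468 bp long and that of MpH3.1c 422 bp, and both were the only introns up to the stop codon of their genes, since neither coding sequence had one. The intron of MpNAC5 had 1371 bp. In MpRBR the intron at the start codon was the second of the leader and had 356 bp.

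Genes whose symbols share a stem were counted as families where at least 20 matched. Over the 2860 genes with a symbol 23.9% had a 5′ UTR intron. The families with the highest shares were the expansins, proteins that loosen plant cell walls (18 of 35, 51.4%), the polyphenol oxidases, which oxidise phenolic compounds (27 of 54, 50%), and the peroxidases under the stem POD (63 of 149, 42.3%). Genes of the bHLH transcription factors followed with 18 of 46 (39.1%). The lowest shares were those of the stem PR with 2 of 45 (4.44%), the cytochrome P450 enzymes under CYP with 10 of 117 (8.55%) and the stem OMT with 2 of 23 (8.70%). The single families below were picked after their values were seen, and no family was tested.

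The expansin introns stood at nearly the same place. Each of the 18 genes had 1, of 121 to 823 bp with a median of 310 bp, and 16 of the 18 ended within 10 bp of the start codon, against 6.25% of all 5′ UTR introns. In 15 of them the distance was 3 to 7 bp. MpExpansin35 was at 0 bp, MpExpansin13 at 12 bp and MpExpansin10 at 96 bp. They lay on 5 chromosomes, 10 of them on chromosome 3, and every one of the 18 genes had 2 CDS introns besides. Of the 18 introns, MpExpansin35 alone held element sequence, 358 bp or 75.4% of its length. Of all 5′ UTR introns 6.74% held some. In the expansin genes as a whole 18 of 61 CDS introns (29.5%) had element sequence, against 4.37% of all CDS introns. Lengths of the leader introns differed widely at the same place: MpExpansin29 had 121 bp at 3 bp from the start codon, and MpExpansin17 had 823 bp at 7 bp.

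5′ UTR introns were longer than CDS introns as a whole. Their median was 314 bp (middle 50% 195 to 549 bp) against 230 bp (158 to 355 bp), and 255 bp for 3′ UTR introns. By chromosome the 5′ UTR medians ran from 292.5 bp on chromosome 3 through 312.75 bp at the middle to 332 bp on chromosome 7. The CDS medians ran from 225 bp on chromosome 4 through 228.5 bp to 241 bp on chromosome 8. The ranges did not overlap, and the difference was 83.9 ± 13.9 bp (SD, n = 8), in the same direction on 8 of 8 chromosomes (exact sign-flip permutation, adjusted p = 0.0195). Introns over 1000 bp made up 471 of the 5′ UTR introns (9.62%) and 2733 of the CDS introns (3.87%).

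Set against introns of the same place in the gene, the difference was not seen for first introns. First introns in a 5′ UTR had a median of 324 bp (n = 3784), and first introns in the coding sequence of genes with no 5′ UTR intron had 335 bp (n = 9464). Over chromosomes the values were 325 ± 15.7 and 334 ± 17.4 bp and overlapped, with a difference of -9.56 ± 23.1 bp (exact sign-flip permutation, adjusted p = 0.258). Second introns differed, with 306 bp in 5′ UTRs and 253 bp in coding sequence (difference 52.5 ± 23.3 bp, higher on 8 of 8 chromosomes, exact permutation, adjusted p = 0.0156). Introns at position 3 had 279 and 229 bp and were longer in the 5′ UTR on 6 of 8 chromosomes, which did not pass (exact permutation, adjusted p = 0.0781). Those at position 4 had 219 and 222 bp, with 64 introns on the 5′ UTR side.

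**Figure D3:**
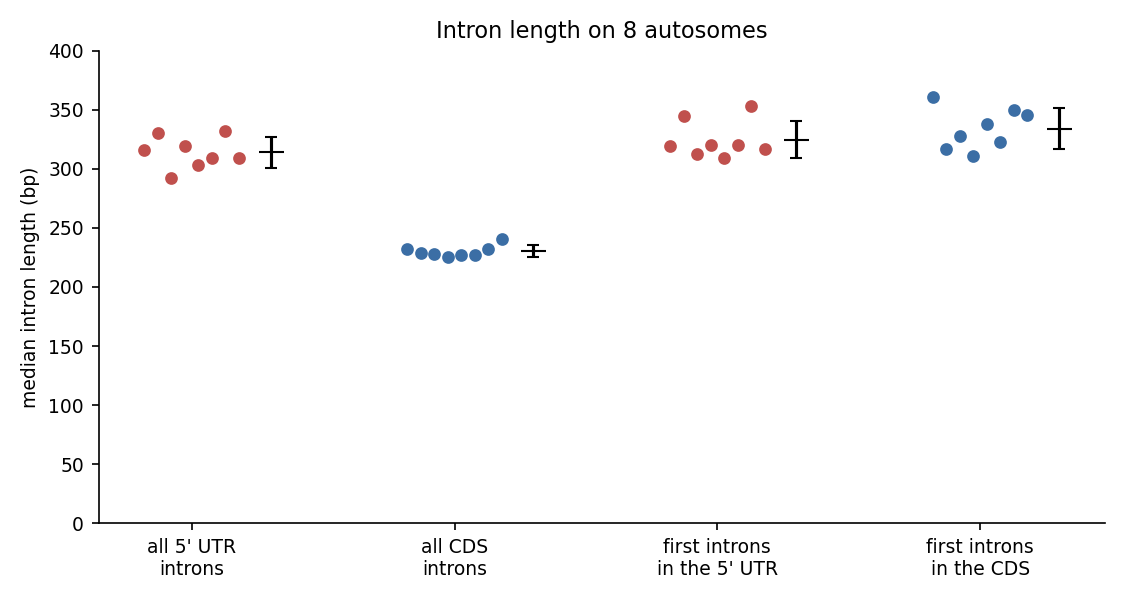
Median intron length in bp on each of the 8 autosomes (points) with mean and SD (bar) for all 5′ UTR introns, all CDS introns, first introns in the 5′ UTR and first introns in the coding sequence of genes with none in the 5′ UTR. All 5′ UTR introns lay above all CDS introns on each chromosome, and the 2 sets of first introns overlapped.

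Within genes the first 5′ UTR intron was set against the first CDS intron, which comes later in the gene, so kind and place differ together. In 2554 genes with both kinds the first 5′ UTR intron had a median of 343 bp and the first CDS intron 293 bp; the former was the longer in 1406 (55.1%), with a median difference of 31.5 bp. By chromosome the median difference was 31.1 ± 17.3 bp (SD, n = 8), above 0 on 8 of 8 chromosomes (exact sign-flip permutation, p = 0.0078). In 7147 genes with no 5′ UTR intron the first CDS intron had 351 bp and the second 244 bp, and the first was longer in 63.6%. The drop there was 81.8 ± 13.0 bp. The drop from the 5′ UTR intron to the first CDS intron was smaller on 8 of 8 chromosomes, with a difference between the drops of -50.7 ± 16.5 bp (exact permutation, p = 0.0078).

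At the extremes, 12 of the introns were over 5000 bp and 6 were under 40 bp. The shortest were 1 bp in Mp3g05260, 13 bp in MpCupin47, 16 bp in Mp4g00630 and 20 bp in MpSPX, far below the sizes known for spliced plant introns. The longest was the only leader intron of Mp7g09280 (chr7:10388834-10402822, plus strand), 13989 bp long and 65 bp before the start codon of a coding sequence of 642 bp. That of Mp6g08290 (chr6:9115839-9128579) had 12741 bp. Mp5g15610 had one of 11261 bp, Mp2g15650 of 11212 bp, Mp3g03920 of 8107 bp, Mp5g21070 of 7789 bp and Mp8g05470 of 7678 bp. Those of Mp4g11000, Mp5g07600 and Mp2g10530 had 7336, 7223 and 6714 bp. Of these 10 longest introns, 4 had no element sequence, those of Mp5g15610, Mp3g03920, Mp5g21070 and Mp5g07600.

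Whole genes lay inside 18 of the 5′ UTR introns (0.368%), 25 genes in all, of which 9 were coding and 16 noncoding. Among CDS introns 125 (0.177%) held 140 genes. The difference was not tested, and 5′ UTR introns are the longer set. The intron of Mp3g03920 (chr3:3904305-3912411) held MpExpansin15 on the opposite strand, which has its own 5′ UTR intron of 159 bp at 7 bp from its start codon. The intron of Mp5g15610 held the coding gene Mp5g15620, 4279 bp long, on the same strand. The first leader intron of Mp5g13740 (chr5:14994089-14997527, 3439 bp) held 8 noncoding genes of 73 to 82 bp, 7 of them on its own strand and 6 of them 74 bp long. What these short genes encode was not read from the files.

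Genes with a 5′ UTR intron differed from the 12635 genes that had a 5′ UTR with none. Their leaders had a median of 638 exonic bp against 390 bp, a difference of 242 ± 55.4 bp by chromosome (8 of 8 chromosomes, exact permutation, adjusted p = 0.0195). Several transcripts were annotated for 33.5% of them against 13.6% (8 of 8 chromosomes, exact permutation, adjusted p = 0.0195). The coding sequence was longer, 1107 against 954 bp at the median (7 of 8 chromosomes, exact permutation, adjusted p = 0.0195). Element sequence lay in the 1 kb upstream of 14.9% against 13.1% of genes (7 of 8 chromosomes, exact permutation, adjusted p = 0.0195). Genes with at least 50% of exonic bp in elements were 4.33% and 2.45% of the same groups, and their part in this difference was not tested. The median number of CDS introns was 2 in both (exact permutation, adjusted p = 0.250), while the mean was 4.59 against 4.01 (higher on 7 of 8 chromosomes, exact permutation, adjusted p = 0.0312). In 1230 genes (32.5%) every intron before the stop codon lay in the leader, since the coding sequence had none. Genes without a 5′ UTR intron lacked CDS introns in 32.8% (exact permutation, adjusted p = 0.688).

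Taking the transcript with most exonic bp can favour long leaders where a gene has several. Among coding genes with 1 transcript, where no choice was made, 16.6% had a 5′ UTR intron, against 20.9% of all. In these the leader had a median of 589 bp in the 2517 genes with an intron in it and 371 bp in the 10914 with none, and the coding sequence 1005 and 897 bp.

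In genes with several transcripts, 5′ UTR introns varied between transcripts far more than CDS introns did. The 5′ UTR introns came from 1267 genes and the CDS introns from 2532, and the comparison was not paired by gene. Of 1685 such 5′ UTR introns 558 (33.1%) were present with the same ends in every transcript, against 17452 of 19688 CDS introns (88.6%). By chromosome the shares were 33.0% ± 2.88 and 88.7% ± 1.17 (SD, n = 8), with no overlap (exact permutation, p = 0.0078). Another transcript had an intron there with a different end for 54.6% against 8.05%. Another transcript began inside the intron for 234 (13.9%) against 141 (0.716%), and another kept the whole intron in an exon for 2.73% against 0.310%. Each of these differences had 1 direction on 8 of 8 chromosomes (exact permutation, adjusted p = 0.0078). Among first introns alone, 30.3% in the 5′ UTR and 72.2% in the coding sequence were in every transcript, and another transcript began inside 16.3% and 5.02% (both exact permutation, adjusted p = 0.0078).

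Mp4g09580, a gene on chromosome 4, shows variation of 5′ UTR introns between transcripts in a single locus. It was chosen because the name of the gene annotation reads as a revision of its transcript 4, so it is not a random example. Transcripts 2 and 4 both opened an intron at position 10753638. In transcript 4, the one taken with 2697 exonic bp, it ended at 10753728, so it was 91 bp long and 441 bp from the start codon. In transcript 2 it ended at 10754159, was 522 bp long and lay 10 bp from the same start codon. Transcripts 1 and 3 began at 10753694, inside both the shorter and the longer intron, and had none in the 5′ UTR. The leader thus had 656, 225 or 476 exonic bp before 1 coding start.

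Transposable element sequence touched 330 of the 5′ UTR introns (6.74%), in 264 genes, and made up 101043 bp or 4.20% of their bp. For CDS introns it touched 3088 (4.37%) and made up 3.596%. The cover by chromosome ran from 2.34% on chromosome 1 through 4.18% to 6.45% on chromosome 8 in 5′ UTR introns and from 2.25% on chromosome 1 through 3.72% to 4.77% on chromosome 6 in CDS introns. These ranges overlapped, and cover was higher in 5′ UTR introns on 5 of 8 chromosomes, by 0.544 percentage points (exact sign-flip permutation, adjusted p = 0.225). That call changed with other choices. The difference was 0.853 points with the transcript of longest coding sequence or with the first transcript (both exact adjusted p = 0.0391). It was 1.06 in genes with 1 transcript (exact adjusted p = 0.0293) and 1.10 without elements of unknown class (exact adjusted p = 0.00977). In 10 other alternatives it kept its sign and did not pass. The sign was reversed without genes having at least 50% of exonic bp in elements (-0.0958, exact adjusted p = 0.938). It was also reversed in genes with no element in an exon, which leaves out crossing copies by construction (-0.567, exact adjusted p = 0.166). The share of introns with element sequence was 6.81% ± 1.89 against 4.52% ± 1.20 (SD, n = 8), higher on 8 of 8 chromosomes (exact permutation, adjusted p = 0.0195). With CDS introns weighted to the same lengths, their share was 5.51% ± 0.855, and the difference held on 6 of 8 chromosomes and did not pass (exact permutation, adjusted p = 0.0651). First introns had 6.49% in the 5′ UTR and 6.46% in the coding sequence (exact permutation, adjusted p = 0.984).

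The order of the shares differed with intron length, and the limits of 400 and 600 bp were set after the shares by length class had been seen, so the tests at them restate that observation. Below 400 bp, 243 of 3036 5′ UTR introns (8.004%) and 3.68% of CDS introns had element sequence, by chromosome 8.08% ± 2.65 against 3.84% ± 1.51 (higher on 8 of 8 chromosomes, exact permutation, adjusted p = 0.0104). From 600 bp up the order was the opposite, with 71 of 1075 (6.60%) against 11.1%, by chromosome 6.69% ± 2.45 against 11.1% ± 0.798 (lower on 8 of 8 chromosomes, exact permutation, adjusted p = 0.0104). A copy lay wholly inside 54 of the 5′ UTR introns (1.10%), whose median length was 1948 bp, and inside 1.22% of CDS introns (exact permutation, adjusted p = 0.406). At equal length the difference in this share was -1.49 percentage points, lower in 5′ UTR introns on 8 of 8 chromosomes (exact permutation, adjusted p = 0.0195). The other 276 (5.64%) had copies that crossed an end or covered the intron, with a median length of 225 bp, against 3.15% of CDS introns (8 of 8 chromosomes, exact permutation, adjusted p = 0.0104).

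Those 276 introns belonged to 215 genes, and in 144 of these (67.0%) elements made up at least 50% of the exonic bp as well. Among the 810 genes of CDS introns with such copies only, the same held for 380 (46.9%). Elements covered at least 90% of the intron in 178 of the 276 and in 1382 of the 2225 such CDS introns. These counts were not tested. Without the genes that had at least 50% of exonic bp in elements, the difference in the share of introns was 0.257 percentage points (exact permutation, adjusted p = 0.674). At equal length it was -1.09 points, lower in 5′ UTR introns on 7 of 8 chromosomes (exact permutation, adjusted p = 0.0586). A copy that crosses an end of an intron is itself element sequence in an exon, so this choice of genes is not independent of the measure.

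**Figure D4:**
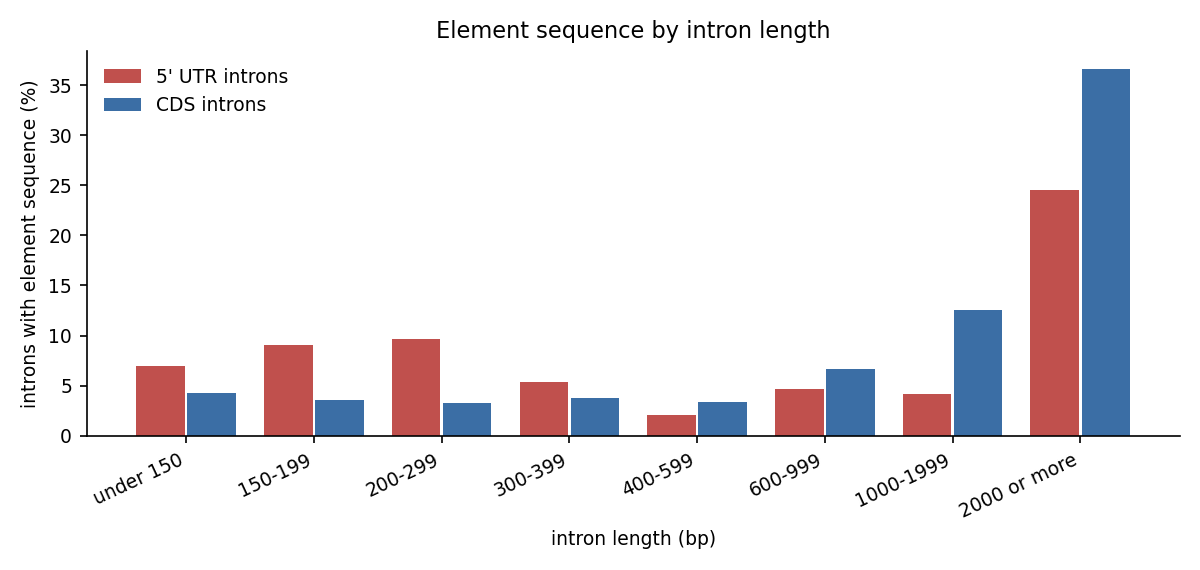
Percent of introns with at least 1 bp of annotated element by intron length in bp, for 5′ UTR introns (red) and CDS introns (blue). 5′ UTR introns were above CDS introns in the 4 classes below 400 bp and below them in the 4 classes from 400 bp up.

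By superfamily, elements of unknown class made up 26.8% of the element bp in 5′ UTR introns and 44.0% in CDS introns. The Mutator group of DNA transposons (DTM) made up 22.1% and 14.2%, and LTR retrotransposons of no named superfamily 17.3% and 7.03%. Gypsy elements followed with 10.1% and 5.12%, and Copia with 9.61% and 13.0%. In 5′ UTR introns these shares rested on few introns. Of 10230 Gypsy bp 6692 lay in the intron of Mp7g09280, and of 9712 Copia bp 5214 lay in that of Mp6g08290. None of 10 superfamilies differed in cover past the threshold (exact permutation over chromosomes, smallest adjusted p = 0.156), and 2 of them had an unadjusted p of 0.0312, unknown class and LTR of no named superfamily. Of 110 stranded copies wholly inside a 5′ UTR intron 57 (51.8%) lay on the strand of the gene, against 47.9% in CDS introns (exact permutation, p = 0.391).

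A few introns held much of the element sequence: the 10 with most had 30.5% of all element bp in 5′ UTR introns, and without them the cover was 2.999%. For the 10 CDS introns with most the values were 7.91% and 3.32%, but these are 10 of 70614 introns and not of 4896, so the shares are not on the same footing. The intron of Mp7g09280 had most, 7348 bp or 52.5% of its length. It contained a Gypsy copy of 6062 bp, found by structure as read from its identifier, on the strand opposite to the gene and 5258 bp before the end of the intron. In Mp6g08290 Copia sequence made up 5214 bp of the 12741 bp intron, with an inner part of 4869 bp between pieces labelled as terminal repeat of 235 and 110 bp, in the order of an LTR retrotransposon. In Mp8g05470 (chr8:6200854-6208531) Gypsy with 2195 bp and Copia with 1887 bp lay side by side on the strand of the gene.

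The other 7 of these 10 were of several kinds. Copies of unknown class made up 2499 of 2506 bp of the intron in Mp5g13660, 1774 bp in Mp1g25950 and 1757 bp in Mp2g15650. The intron of Mp6g03870 (1858 bp) lay whole within a DTM copy of 4994 bp that extended past both of its ends. In Mp7g10160 Copia pieces and MITE copies related to DTM made up 1794 bp. In Mp2g21700 (chr2:23882125-23883917) 6 copies of 312 bp of the family TE_00000488_INT followed each other and covered 98.0% of the intron. In Mp2g04330, DTM copies made up 1567 of 3930 bp and the intron ended 10 bp before the start codon.

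**Figure D5:**
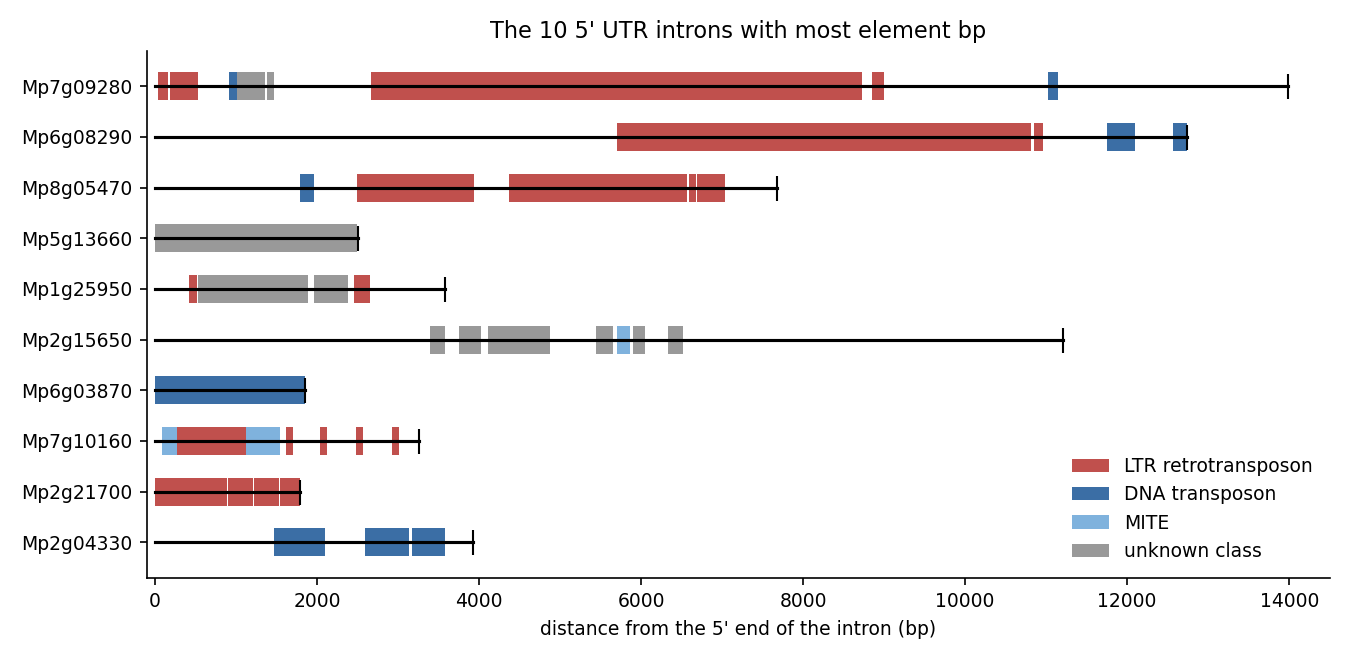
The 10 5′ UTR introns with most element bp, each drawn as a line from its 5′ end (distance in bp), with copies as boxes coloured by class. The 13989 bp intron of Mp7g09280 contains 1 Gypsy copy of 6062 bp, while those of Mp5g13660 and Mp6g03870 are covered from end to end or nearly so.

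Some element families recurred in 5′ UTR introns of related genes; these were picked after their values were seen. Of 173 families found there, TE_00000488_INT had most copies, 87 in 45 genes, none of which has a symbol. TE_00000076 touched 13 introns, all of them in cupin genes, a family that includes seed storage and germin-like proteins. These 13 introns had 175 to 303 bp, ended 26 to 28 bp before the start codon and held 23 to 26 bp of the element each, and 12 of the 13 lay on chromosome 5. Each of the 13 copies crossed an end of the intron, and their median length was 98 bp. Elements also made up 38.8% to 75.5% of the exonic bp of these genes. In CDS introns TE_00000076 had 1 copy, but in the cupin genes as a whole 50 of 112 CDS introns (44.6%) had element sequence. TE_00000075 touched 13 introns, of which 9 were in peroxidase genes, and no CDS intron. Other families in peroxidase genes were found in CDS introns too. TE_00000014 also touched 13 genes, 9 of them peroxidase genes, and had 76 copies in CDS introns. TE_00000383 touched 8 genes, 7 of them peroxidase genes, and had 15 copies in CDS introns. TE_00001076, a DTM family, touched 10, of which 7 were in polyphenol oxidase genes, and no CDS intron.

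The 20 peroxidase introns with element sequence fell largely into sets of the same shape. In 9 the intron had 184 to 192 bp and ended 124 or 125 bp before the start codon, with 72 to 111 bp in elements. In 8 others it had 185 to 216 bp and ended 20 or 21 bp before it, with 167 to 199 bp in elements. All 17 lay on chromosome 5. In the first set elements also made up 77.6% to 85.2% of the exonic bp and in the second 48.6% to 96.2%. In the POD genes as a whole 208 of 426 CDS introns (48.8%) had element sequence as well. The 8 polyphenol oxidase introns with elements had 288 to 365 bp, all on chromosome 5, in genes with 88.3% to 92.6% of exonic bp in elements. Members of these sets lie near each other and share sequence labels, so they are not independent.

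Among the genes of DNA methylation 4 of 8 had a 5′ UTR intron, beside 20.9% of all coding genes. MpMET, the gene lost in Mpmet-3, had none in its 823 bp leader, and neither had the chromomethylase gene MpCMTa, the remodeller gene MpDDM1 or MpDNMT3b. The other chromomethylase gene, MpCMTb, had an intron of 362 bp (chr6:23283692-23284053), 27 bp before the start codon. MpDRMa, a gene of the enzymes that methylate DNA de novo, had introns of 172 and 1136 bp, the latter 58 bp before the start codon, and its relative MpDRMb had one of 211 bp at 80 bp. MpDNMT3a, a methyltransferase gene of a kind better known from animals, had introns of 188 and 117 bp, the latter 10 bp before the start codon. None of these 6 introns held element sequence, and neither did 93.3% of all 5′ UTR introns.

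Every matched gene of the next lists had a 5′ UTR, and of all coding genes with one 23.05% had an intron in it. In the auxin list 1 of 11 matched genes had such an intron, the auxin response factor gene MpARF2, with 221 bp at 422 bp from the start codon. MpARF1, MpARF3, MpIAA, MpPIN1, MpSHI, MpTAA, MpTIR1, MpTPL, MpYUC1 and MpYUC2 had none, although each had a 5′ UTR. Of 6 matched light-signalling genes 3 had one. The blue-light receptor genes MpPHOT (1012 and 528 bp), MpCRY (321 bp) and MpFKF (412 and 1527 bp) were the 3, while the red-light receptor gene MpPHY, the UV-B receptor gene MpUVR8 and MpCOP1 had none. Of 5 genes of the cytoskeleton and translation, of the kind whose promoters are used to drive transgenes, 3 had one. MpEF1, for the elongation factor, had 360 bp ending 13 bp before the start codon, MpACT1 1289 bp ending 14 bp before it and MpACT2 186 bp at 239 bp, while MpTUB2 and MpTUB4 had none. The lists are small, and nothing particular to them is drawn from these counts.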

How the data were processed

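On the build MpTak1 v5.1 revision 2, as read from their names, the deposited files hold positions in bp, with first and last bases counted from 1. These are neither counts nor expression values, and the authors gave no other score. Per the submitters' processing notes, Trim Galore and STAR were used on the reads, with no version, and the sources used here do not say how genes were annotated. The elements were annotated by the authors with EDTA, per the source column of the file. Members and lists were chosen with earlier results of these data known, and several tests and families were added after values were seen. Introns are the gaps between exons of 1 transcript per gene. An intron counted as having element sequence from 1 bp of overlap, and overlapping copies were merged. Values per chromosome were compared with exact 2-sided sign-flip permutation tests paired by chromosome, adjusted within each family of tests after Benjamini and Hochberg at a threshold of 0.05. Chromosomes are parts of 1 genome, not plants, so p-values describe only how consistent a difference is between them, and SDs give the spread. The smallest p is 0.0078 with 8 chromosomes. Scripts were tested on simulated data. Symbols came from a RefSeq table for assembly MpTak2_v7.1 by locus number with gene lengths within 5% (16225 of 17369 number matches); 2860 genes received a symbol. They rest on number and length, not sequence. Named were Mp4g09580, the 10 genes with most introns, the 10 longest introns, the 10 with most element bp and matched list members; other names were chosen after values were seen. Alternatives were other transcripts, gene sets, intron lengths, elements and summaries, and leaving out each chromosome. Python 3.11.15, numpy 2.4.6, pandas 2.3.3 and matplotlib 3.10.9 were used.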

Additional observations from a re-analysis of the deposited data

Results flagged for a closer look

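The median length of CDS introns on chromosome 8, 241 bp, stood apart from the other 7 autosomes, whose highest value was 232 bp. The gap was 0.5625 of the whole range, just above the critical share for 8 values. About 1 in 20 sets of values is marked in this way by chance. Several measures were screened at both ends and only this one was marked, so a mark by chance somewhere among them is likelier than that. Leaving out chromosome 8 kept the length difference between 5′ UTR and CDS introns past the threshold.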

How the results depend on the processing

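The difference in median length kept its direction and its side of the threshold under each alternative run, and without each chromosome in turn it was 81.4 to 86.6 bp. The share of coding genes with a 5′ UTR intron was 20.6% to 21.1% without each chromosome, and 16.6% in genes with 1 transcript. In genomic bp the median distance to the start codon was 149 bp. The first-intron difference without each chromosome was -14.9 to -5 bp and changed sign as a mean of log10 lengths (0.0012, exact adjusted p = 0.875); the cause was not tested.

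Element results moved most; values are percentage points, 5′ UTR minus CDS introns, with exact permutation tests. Without each chromosome, cover differed by 0.343 to 0.723, the share of introns with element sequence by 1.996 to 2.57 and the share at equal length by 0.974 to 1.495. With the transcript of longest coding sequence, cover was 0.853 and the share at equal length 1.71; with the first transcript, 0.853 and 1.69; with 1-transcript genes, 1.06 and 2.56; without unknown class, 1.10 and 2.23. All 8 passed. The share at equal length also passed for introns of 40 to 5000 bp (1.38) and elements of at least 200 bp (1.77). Without genes having at least 50% of exonic bp in elements, cover was -0.0958, the share 0.257 (exact adjusted p = 0.674) and the share at equal length -1.09 (adjusted p = 0.0586). The share at equal length was 0.417 (exact adjusted p = 0.391) against the first CDS intron of each gene. In genes with no element in an exon, an alternative chosen after seeing the data that leaves out crossing copies by construction, cover, the share and the share at equal length were -0.567, -0.210 and -1.58 (exact adjusted p = 0.166, 0.166 and 0.0195). Counting only copies wholly inside, the share was -0.125 (exact adjusted p = 0.406) and at equal length -1.49 (adjusted p = 0.0195). The cause of the other changes was not tested. The mean of log10 lengths gives no value for a share and was not run there. No paired analysis was possible because no column holds a value of a library; this concerns replicate numbers of libraries, since chromosomes were paired in the tests. Depth sets no limit here; the annotation does, since unannotated leaders, introns and elements are not counted.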

Other observations

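Among genes with a 5′ UTR, 22.9% of the 5376 genes with no CDS intron had a 5′ UTR intron. The share was 17.7% in genes with 1 CDS intron and higher in each class above it, with 22.6% at 2 or 3, 24.3% at 4 to 7, 25.6% at 8 to 15 and 28.2% at 16 or more. The dirigent genes under the stem DIR, whose products guide the coupling of phenolic radicals, had a leader intron in 15 of 52 members (28.8%). Of the 2860 genes with a symbol 23.9% had one. Of the 52 DIR genes 96.2% had no CDS intron. Their 16 leader introns lay 16 to 65 bp from the start codon. Of the polyphenol oxidase genes 27 of 54 (50%) had a leader intron and 85.2% lacked a CDS intron. Other families that mostly lacked CDS introns had lower shares. Cupin genes lacked them in 66.0% and had a leader intron in 18.6%, and genes of the stem H in 66.7% and 18.5%. These families were chosen after their values were seen. First introns that followed a first exon of at most 50 bp had element sequence in 34.5% of 55 cases in the 5′ UTR and 15.3% of 150 in the coding sequence. At over 50 and up to 100 bp the shares were 12.4% and 12.04%, and at up to 200 bp 11.3% and 11.6%. At up to 400 bp they were 6.44% and 9.81%, at up to 800 bp 4.26% and 5.26%, and above that 3.53% and 3.44%. These are descriptions and were not tested.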
